A study of Mus musculus and Homo sapiens with 75 samples.

Results

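KO-52 is a human acute myeloid leukaemia line in which both copies of CEBPA, the gene for the transcription factor C/EBP-alpha, are mutated. The comparison is of KO-52 cells given the long form of the factor, p42, with KO-52 cells given the short form, p30, both without stimulation. Its members were the 3 libraries labelled p42, UT and the 3 labelled p30, UT, 6 of the 75 libraries of the series, and it covers all 59251 genes of the KO-52 table, of which 21272 had enough counts to be tested. The cells were electroporated with a p42-FLAG-GFP or a p30-FLAG-GFP plasmid, GFP+ cells were sorted a day later, and the cells were used a day after the sort. All groups therefore shared the electroporation, the sort and the mutant CEBPA copies of the line, and none of them was a stable clone. KO-52 cells that received the GFP empty plasmid (EV, 3 untreated libraries) gave the background level of each gene. Cells given the same p42 and p30 plasmids and then 2 h of lipopolysaccharide (LPS, 100 ng/mL, 3 libraries each) gave a second set of libraries. LPS is a bacterial cell wall component that activates Toll-like receptor 4. Whether these LPS libraries came from the same electroporations as the untreated ones is not stated. The replicates were separate experiments on this one cell line, so their spread is that between experiments and not between people.

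C/EBP-alpha is a basic leucine zipper protein that directs progenitors towards granulocytes and monocytes, switching on the genes of granules, receptors and phagocyte enzymes. One transcript gives both forms: p42 begins at the first start codon of the reading frame and p30 at a later one, so that p30 keeps the DNA-binding zipper but lacks the first part of the protein with its trans-activation regions. Mutations in the first part of the gene in leukaemia leave only p30. The CEBPA coding sequence lies in 1 exon on the minus strand of chromosome 19 (hg38, 33301341 to 33302414) and has 358 codons. The start codon of p30 is codon 120, which leaves a protein of 239 residues and removes the first 119. The first 30 bases that each form reads are shown to place the 2 start sites, with the start codon in capitals, from the hg38 genome (chr19:33302385-33302414 for p42 and chr19:33302028-33302057 for p30, both minus strand).
CEBPA p42 start: ATGgagtcggccgacttctacgaggcggag
CEBPA p30 start: ATGcccgggggagcgcacgggcccccgccc

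The 6 libraries held between 22101134 and 32414233 counts on genes. Levels are given as CPM (counts of a gene relative to the size of its library) after scaling each library on its 92 synthetic spike-in RNAs of the ERCC set, which were added to the samples, and log2 fold changes are p42 over p30 on that scale. A gene was called higher or lower with p42 when edgeR's quasi-likelihood test gave a Benjamini-Hochberg adjusted p under 0.05 and the log2 fold change was beyond 1 in either direction. Spike-ins took 0.593% ± 0.149 of the counts with p42 and 0.508% ± 0.060 with p30 (SD, n = 3), and the 2 groups overlapped (exact permutation test, two-sided, p = 0.5, smallest possible 0.1). Over all genes tested the median log2 fold change was -0.23 on the spike-in scale and 0.01 when libraries were scaled on the genes themselves (TMM), so a gene that kept its place among the others sits near -0.23 here. The p42 library of replicate 3 had a spike-in factor of 0.888 against 1.47 and 1.24 in the other two p42 libraries, so of the 3 p42 libraries its counts are scaled up the most. Log2 fold changes are given ± their standard error (SE) and mean levels ± SD, with 3 libraries in each group. In a bulk sample, fewer cells of a kind and less RNA per cell cannot be told apart. Between 4.82% and 5.70% of the counts of the 6 libraries were mitochondrial, with both groups in the same range.

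CEBPA itself was not higher with p42. The species of the insert is not stated for this electroporation, but the paper describes plasmids of the same names as human in its co-immunoprecipitation work. Plasmid reads may therefore be part of this count with p42 and p30, and their share is not known. Its level was 919, 991 and 1639 CPM in the p42 libraries, 2229, 2233 and 2045 CPM in the p30 libraries and 1708 ± 657 CPM with EV (SD, n = 3). The p42 libraries all lay below the p30 libraries, with a log2 fold change of -0.87 ± 0.26 and an adjusted p of 0.0127, short of the fold threshold. Since the table counts whole genes, CEBPA counts cannot tell the plasmids apart and are no check of the labels. Of the 6 C/EBP family genes, which pair with C/EBP-alpha through their zippers, none was called. CEBPB stood at 31.0 ± 9.20 CPM with p42 and 19.8 ± 3.94 CPM with p30, a log2 fold change of 0.65 ± 0.31 (adjusted p = 0.208), CEBPE at 9.07 ± 3.63 and 16.7 ± 3.60 CPM (-0.88 ± 0.33, adjusted p = 0.0689). The others were CEBPD (0.20 ± 0.33), CEBPG (0.01 ± 0.30) and DDIT3 (0.84 ± 0.31), of which DDIT3 was called higher on the TMM scale. DESeq2 called none of the 6, and 4 had an unadjusted p under 0.05 in edgeR.

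More genes were higher with p42 than were higher with p30, and most of them started from a low level. Of 21272 genes, 1308 were called higher with p42 (6.15%) and 457 lower (2.15%), 1765 in all (8.30%). The higher genes had a median log2 fold change of 2.88 and a median p30 level of 0.458 CPM against 4.06 CPM with p42, while the lower genes had a median of -1.41 and moved between levels of 6.26 CPM with p30 and 2.38 CPM with p42. In 228 of the 1308 higher genes no read at all was counted in the 3 p30 libraries, and in 181 of these none was counted with EV either. Over all 21272 genes tested these numbers were 230 (1.08%) and 182. Among the 457 lower genes, 7 were at 0 in all p42 libraries, against 9 of all genes tested. A gene at 0 in 1 group had enough counts to be tested only through other groups, so these numbers are descriptions and no test. The p42 libraries detected 27550 to 28157 genes and the p30 libraries 25865 to 26273, without overlap (exact permutation test, two-sided, p = 0.1, the smallest 3 against 3 allow), and the EV libraries detected 25244 to 25886. Detection depends on depth, which was not matched: 24465318 to 32414233 counts with p42 and 22101134 to 25384658 with p30. The p42 library with 24465318 counts detected 27550 genes, and the p30 library with 25384658 counts detected 25865. The split depended on the scale: with TMM scaling 1798 genes were higher and 297 lower, so 85.8% of the calls were higher in place of 74.1%. Without the p42 library of replicate 3 the lower genes numbered 1667, and without the p42 library of replicate 1 or 2 or the p30 library of replicate 2 they numbered 231, 196 and 230, whereas the higher genes stayed between 1015 and 1456 when any 1 library was left out.

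**Figure D1:**
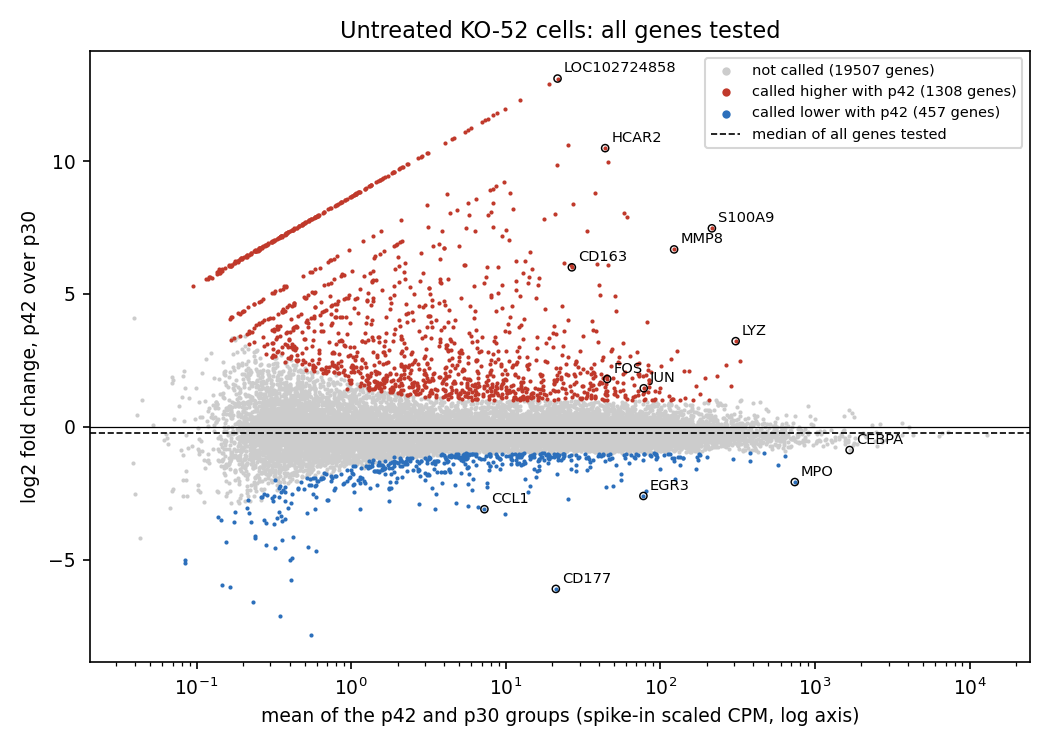
Each point is 1 of the 21272 genes tested, at the mean of the p42 and p30 groups in spike-in scaled CPM (log axis) and its log2 fold change, p42 over p30. Red points are the 1308 genes called higher with p42 and blue points the 457 called lower, the dashed line is the median of all genes at -0.23, and the straight upper edge is made of genes with no count in the p30 libraries, whose plotted fold rests on the small count that edgeR adds.

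List counts here and below are to be read against all genes tested, of which 6.15% were called higher and 2.15% lower. The lists and their members were chosen with earlier results of these data known. Their counts, medians and ranks are therefore descriptions and no independent test. Among lists with at least 8 tested members, the late granule and calprotectin genes had the largest median. They encode the proteins that maturing neutrophils make for their later granules and their cytosol. Of 26 listed genes 18 were tested, 14 were called higher (6.15% of all genes were) and none lower, with a median log2 fold change of 4.53 (4.39 with genes at 0 set to their lower bound) against -0.23 over all genes. S100A9, which with S100A8 forms the calcium- and zinc-binding protein calprotectin, read 282, 508 and 497 CPM in the p42 libraries, 1.59, 2.89 and 2.83 CPM in the p30 libraries and 0.0407 ± 0.0704 CPM with EV. Its lowest p42 library stood far above its highest p30 library, and its log2 fold change was 7.47 ± 0.40 (adjusted p = 5.21e-73). S100A8 read 11.7, 12.6 and 18.1 CPM with p42 and 0.396, 0.0534 and 0.485 CPM with p30, and was not counted in any EV library.

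MMP8, the collagenase of neutrophil granules, read 177, 253 and 299.5 CPM with p42 and 2.92, 2.24 and 1.94 CPM with p30, and was at 0 in all 3 EV libraries. Its log2 fold change was 6.68 ± 0.39 (adjusted p = 7.95e-61). ARG1, which breaks down arginine, read 84.4, 139 and 142 CPM with p42 and 0.252, 0.267 and 0.969 CPM with p30. In each of these genes the p42 library of replicate 1 was the lowest of its group, and the p42 and p30 groups did not overlap. HP, which encodes the haemoglobin-binding protein haptoglobin, read 26.2, 51.4 and 51.1 CPM with p42 and had 3 counts over the p30 libraries, a ratio of 1003 with a 95% counting interval of 343 to 4866. QPCT, an enzyme that closes the first glutamine of secreted peptides into a ring, read 66.7, 113 and 116 CPM with p42 and 2.67, 3.95 and 3.07 CPM with p30 (4.94 ± 0.37).

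Another 3 members of the group had no count with p30: S100A12 at 1.64 ± 0.777 CPM, ORM1 at 2.22 ± 0.510 CPM and CRISP3 at 1.07 ± 0.476 CPM with p42 (SD, n = 3). Against a floor of 3 counts over the p30 group they were at least 39.0-fold, 52.7-fold and 25.4-fold higher. ORM1 has a near-identical neighbour, ORM2. Only uniquely mapping reads were counted, so its reads may be missing or misplaced. S100P (3.59 ± 0.35), CHI3L1 (2.29 ± 0.45), CAMP, the cathelicidin peptide (4.11 ± 0.93), FCAR, the receptor for immunoglobulin A (3.31 ± 0.88), and ANXA1 (2.4 ± 0.32) were also called higher. Not all late genes were called: LTF, MMP9, MMP25 and TCN1 were tested and not called, and LCN2, OLFM4, CEACAM8 and 5 others had too few counts to be tested. Of the 18 tested members, 16 had an unadjusted p under 0.05 in edgeR, and 15 were called higher with TMM scaling.

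The primary granule genes, which are made earlier, at the promyelocyte stage, went in both directions. Of 12 tested, 5 were called higher and 2 lower, with a median of 0.61. LYZ, the lysozyme that cleaves bacterial walls, read 267, 584 and 813 CPM with p42, 43.3, 74.2 and 60.8 CPM with p30 and 63.6 ± 4.62 CPM with EV, a log2 fold change of 3.22 ± 0.32 (adjusted p = 1.14e-21). MPO, which makes hypochlorous acid and is the hallmark of this granule, was the reverse, at 115, 236 and 499.5 CPM with p42 and 1084, 1399 and 1110.0 CPM with p30 (-2.08 ± 0.29, adjusted p = 5.26e-11). With EV it stood at 176 ± 47.3 CPM, so that p30 was the highest of the 3 groups.

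PRSS57, a serine protease of the same granule, was also lower with p42 (27.7 ± 14 against 75.0 ± 13.1 CPM, log2 fold change -1.44 ± 0.31). RNASE2 (1.48 ± 0.32), RNASE3 (1.31 ± 0.36), MS4A3 (1.82 ± 0.43) and PRTN3 (2.05 ± 0.67) were higher, and of these PRTN3 overlapped between the groups. CD177, a surface protein of neutrophils, had the largest fall among genes that averaged 50 or more counts and did not overlap between the groups. It read 0.446, 0.548 and 0.856 CPM with p42, 25.4, 47.6 and 51.6 CPM with p30 and 0.222 ± 0.126 CPM with EV (-6.10 ± 0.41, adjusted p = 1.21e-46), so it was near the EV level with p42 and high only in the p30 libraries among these 9.

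**Figure D2:**
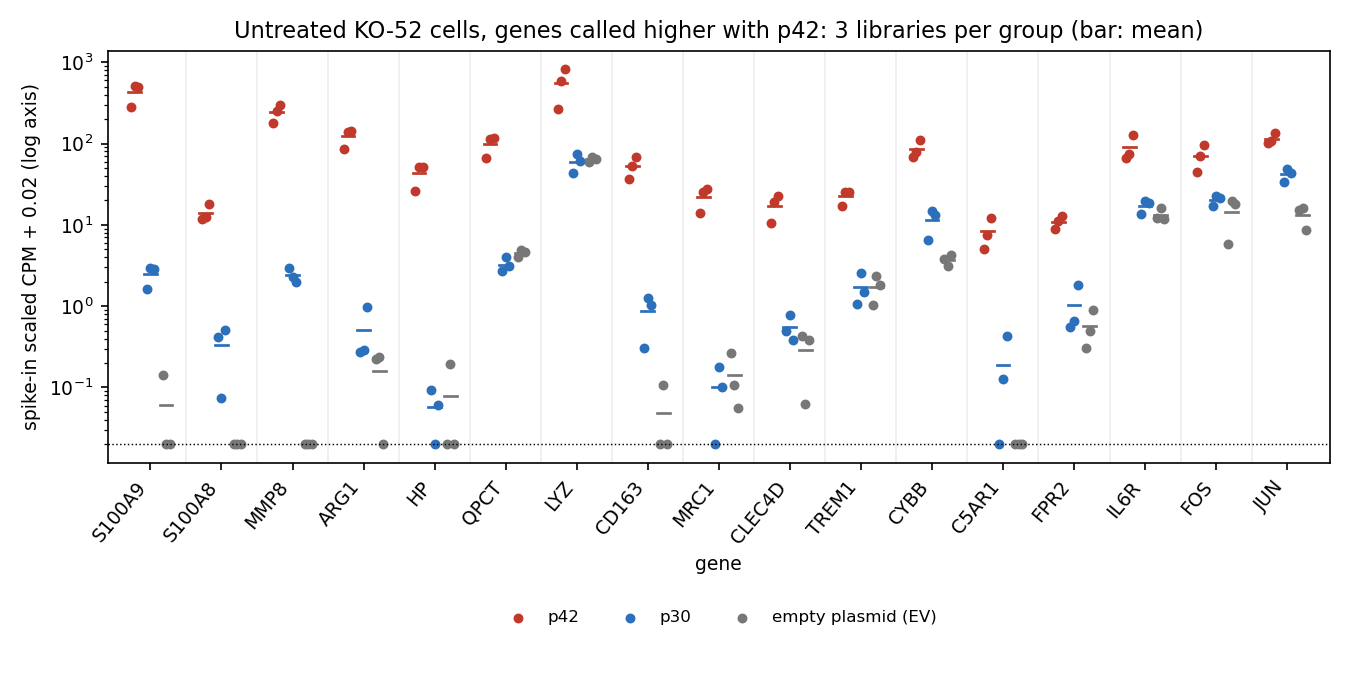
Each point is 1 untreated library, 3 each with p42 (red), p30 (blue) and EV (grey), and bars are group means, in spike-in scaled CPM plus 0.02 on a log axis; the dotted line marks a library with no count. All 17 genes were called higher with p42, and in each the 3 p42 libraries lie above the 3 p30 libraries (as in 9.51% of all genes tested), from LYZ at 267 to 813 CPM down to C5AR1 at 5.07 to 12.3 CPM.

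Genes of monocytes and macrophages rose in part. Of 25 tested, 8 were called higher and 1 lower, with a median of 0.68. CD163, the scavenger receptor that takes up haptoglobin bound to haemoglobin, read 36.8, 52.7 and 68.6 CPM with p42, 0.288, 1.23 and 1.01 CPM with p30 and 0.0289 ± 0.0501 CPM with EV (6.00 ± 0.41, adjusted p = 4.35e-46). MRC1, the mannose receptor, read 14, 25.0 and 27.6 CPM with p42 and 0, 0.160 and 0.0808 CPM with p30 (8.18 ± 0.54). CLEC4D and CLEC4E, C-type lectin receptors for mycobacterial and fungal sugars that lie beside each other on chromosome 12, had log2 fold changes of 5.05 ± 0.43 and 1.97 ± 0.41. TREM1, a receptor that amplifies inflammatory signals, read 22.7 ± 4.73 CPM with p42 and 1.68 ± 0.751 CPM with p30 (3.77 ± 0.37).

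MARCO, another scavenger receptor, was at 0 with p30 and EV and at least 26.1-fold higher with p42. APOE (1.58 ± 0.44) and LILRB2 (1.60 ± 0.51) completed the 8, and LILRB2 overlapped between the groups. CLEC7A, the beta-glucan receptor dectin-1, was the 1 that was lower (-1.37 ± 0.34). The defining monocyte receptors CD14 and CSF1R were not called: CD14 stood at 5.89 ± 1.74 CPM with p42 and 4.24 ± 1.12 CPM with p30 (0.47 ± 0.37, adjusted p = 0.478), and CSF1R at 15.5 ± 5.96 and 26.6 ± 4.65 CPM (-0.78 ± 0.32, adjusted p = 0.109).

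The phagocyte oxidase makes superoxide inside the vacuole that holds an engulfed microbe. Of 8 tested genes of this list, 4 were called higher and none lower, with a median of 0.88. CYBB, the catalytic subunit, read 68.6, 79.3 and 109.7 CPM with p42 and 6.49, 14.6 and 13.2 CPM with p30 (2.91 ± 0.33, adjusted p = 2.99e-16). The cytosolic subunit NCF1 (1.74 ± 0.33) was higher too, although it has near-identical pseudogenes and its count is uncertain. SOD2, the mitochondrial enzyme that removes superoxide, read 446 ± 77.7 CPM with p42 and 88.4 ± 24.6 CPM with p30 (2.34 ± 0.30). CYBA, NCF4, RAC2 and HVCN1 were not called.

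Receptors for chemoattractants were called higher in 6 of 16 and lower in 2, with a median of 0.52. The formyl peptide receptors FPR1 (3.20 ± 0.44) and FPR2 (3.43 ± 0.40), which sense bacterial peptides, the complement receptor C5AR1 (5.57 ± 0.53), the chemokine receptors CCR2 (3.23 ± 0.61) and CX3CR1 (2.29 ± 0.64), and the lipid receptor S1PR1 (6.25 ± 0.44) were higher with p42. C5AR1 read 5.07, 7.48 and 12.3 CPM with p42 and 0, 0.107 and 0.404 CPM with p30, and it was at 0 in the EV libraries. CCR7, which guides cells to lymph nodes, was lower at 1.09, 0.474 and 2.4 CPM with p42 and 11.5, 9.46 and 9.29 CPM with p30 (-2.98 ± 0.38, adjusted p = 3.83e-13). PTAFR, the receptor for platelet-activating factor, was lower too (-1.36 ± 0.33).

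Cytokine receptors were called higher in 6 of 22 and lower in 1, with a median of 0.57. IL6R, the binding chain of the interleukin-6 receptor, read 66.7, 75.3 and 129 CPM with p42 and 13.5, 19.3 and 18.3 CPM with p30 (2.4 ± 0.33, adjusted p = 1.05e-11). IL17RA (1.54 ± 0.31), the interleukin-1 receptor chains IL1R1 (1.45 ± 0.31) and IL1RAP (1.33 ± 0.31), TGFBR1 (1.22 ± 0.30) and CSF3R, the receptor for the granulocyte growth factor G-CSF (1.01 ± 0.31), were higher. CSF2RB, the shared signalling chain of the GM-CSF, interleukin-3 and interleukin-5 receptors, was lower (-1.04 ± 0.30), but on the TMM scale its log2 fold change was -0.82, inside the fold threshold.

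Complement genes were called higher in 4 of 9 and none lower. Among them the receptor CR1 had a log2 fold change of 4.54 ± 0.40, the central component C3 one of 1.60 ± 0.32 and CFD one of 1.71 ± 0.38. Of 12 inflammasome genes 4 were higher and none lower: NLRP12 at 8.32 ± 2.23 CPM with p42 and 1 count over the p30 libraries (ratio 565, 95% counting interval 101 to 22341), NLRP1 (2.13 ± 0.43), NOD2 (1.90 ± 0.36) and CASP1, the protease that matures interleukin-1 beta (1.19 ± 0.31). NLRP3 itself was not called. Among Toll-like receptors and their adaptors 1 of 20 was called higher, against 6.15% of all genes. It was LY96, the MD-2 protein through which TLR4 binds LPS (1.18 ± 0.39), and it lost the call in 5 of 14 alternatives. With TMM 4 of the 20 were called higher. TLR4 stood at 57.6 ± 20.9 CPM with p42 and 37.5 ± 7.76 CPM with p30 (0.62 ± 0.31, adjusted p = 0.225).

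Lipid mediator genes moved in both directions, 4 higher and 3 lower of 17. ALOX5, which starts leukotriene synthesis (1.90 ± 0.51), its partner ALOX5AP (1.64 ± 0.31), PTGES (4.12 ± 0.77) and HPGD (1.43 ± 0.33) were higher, and LTC4S (-1.04 ± 0.32, -0.86 with TMM) with the prostanoid receptors PTGER2 (-1.21 ± 0.32) and PTGIR (-1.76 ± 0.35) lower. HMOX1, which degrades haem, read 38.7 ± 6.52 CPM with p42 and 3.44 ± 0.526 CPM with p30 (3.49 ± 0.35), and NQO1 had a log2 fold change of 1.17 ± 0.32. ITGB2, the beta chain of the leukocyte integrins, rose by 1.85 ± 0.31 from 83.9 ± 16.9 CPM with p30 to 303 ± 130.4 CPM with p42, while ITGB7 (-1.58 ± 0.32) fell. CEACAM1 fell too, with 2 counts over the p42 libraries and a p30 to p42 ratio of 41.2 (95% counting interval 10.9 to 348).

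The AP-1 factors are dimers of FOS, JUN, ATF and related zipper proteins that relay growth and stress signals. Of 15 tested, 2 were called higher and 1 lower, with a median of 0.06 against -0.23 over all genes. FOS read 44.6, 69.6 and 96.9 CPM with p42, 17.0, 22.5 and 21.2 CPM with p30 and 14.5 ± 7.56 CPM with EV (1.80 ± 0.32, adjusted p = 8.29e-07). JUN read 102, 106 and 135 CPM with p42, 34.0, 48.0 and 43.5 CPM with p30 and 13.2 ± 4.04 CPM with EV (1.45 ± 0.31, adjusted p = 9.44e-05). In both genes the groups did not overlap and the p42 group was the highest of the 3. FOSB, by contrast, was lower with p42, at 4.38 ± 0.657 CPM against 10.1 ± 1.88 CPM (-1.20 ± 0.35), and its TMM value of -0.93 fell inside the fold threshold.

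ATF3 (0.97 ± 0.32) and FOSL2 (0.80 ± 0.30) had positive values inside the threshold, and ATF3 passed it on the TMM scale (1.24). JUNB (0.21 ± 0.30), JUND (-0.82 ± 0.30), FOSL1 (-0.43 ± 0.31), ATF2 (-0.07 ± 0.31), ATF4 (-0.31 ± 0.28), ATF7 (-0.31 ± 0.31), BATF (0.06 ± 0.31), BATF2 (0.83 ± 0.62), BATF3 (0.86 ± 0.44) and JDP2 (-0.39 ± 0.31) were not called. JUNB, JDP2, ATF2, ATF4, ATF7, BATF, BATF2 and BATF3 overlapped between the groups, and ATF2 changed sign between the scales (0.20 with TMM). With TMM, 4 members were called higher and none lower. Of the NF-kB subunits and inhibitors, 1 of 14 was called, BCL3 (1.33 ± 0.32), which was higher with p42, as were 6.15% of all genes. None of 8 interferon regulatory factors was called, with none at an unadjusted p under 0.05 and none by DESeq2.

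EGR1, EGR2, EGR3, NR4A1, NR4A2 and NR4A3 were called lower. EGR and NR4A genes encode zinc finger proteins and orphan nuclear receptors that cells induce within minutes of a signal. EGR1 read 62.9, 64.3 and 128 CPM with p42 and 224, 305 and 236 CPM with p30 (-1.58 ± 0.31, adjusted p = 9.30e-06), and EGR3 read 17.0, 11.8 and 37.2 and 107, 151 and 141 CPM (-2.60 ± 0.33, adjusted p = 1.37e-13). EGR2 (-1.97 ± 0.33), NR4A1 (-2.01 ± 0.32), NR4A2 (-1.79 ± 0.32) and NR4A3 (-2.23 ± 0.34) were also lower. All 6 were also lower on the TMM scale, from -2.43 for EGR3 to -1.38 for EGR1. The EV libraries were spread widely for these genes, for instance 17.7, 69.2 and 111 CPM for EGR3.

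These 6 were the lower calls among 25 myeloid transcription factors, of which 3 were higher (5 with TMM). PPARG, a nuclear receptor of fat cells and alveolar macrophages, read 3.23, 5.18 and 4.28 CPM with p42 and had 2 counts over the p30 libraries, a ratio of 152 with a 95% counting interval of 41.8 to 1259. ID1 (2.59 ± 0.44) and KLF2 (1.97 ± 0.51) were higher. The lineage factors SPI1 (-0.34 ± 0.29), GFI1 (-0.86 ± 0.30), IRF8 (0.40 ± 0.36) and MYB (-0.68 ± 0.30) were not called. Among feedback inhibitors SOCS3, which blocks cytokine receptor signalling, was higher (2.53 ± 0.36), while DUSP2 (-1.17 ± 0.31), SPRY1 (-1.14 ± 0.32) and SOCS2 (-1.32 ± 0.40) were lower. All 3 falls were inside the fold threshold on the TMM scale (-0.93, -0.89 and -0.99).

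Cytokines and chemokines split, with 5 of 40 higher and 9 lower and a median of -0.38. Higher with p42 were IL1RN, the natural antagonist of the interleukin-1 receptor (86.1, 164 and 167 against 19.7, 33.2 and 29.5 CPM, log2 fold change 2.34 ± 0.32), CXCL1 (2.23 ± 0.37), IL10 (2.04 ± 0.55), IL15 (3.00 ± 0.67) and CCL24 (1.14 ± 0.39). Lower were the monocyte attractant CCL2 (39.97, 51.8 and 61.5 against 97.9, 258 and 243 CPM, -1.96 ± 0.31), TNF (9.59, 16.9 and 19.6 against 32.8, 44.8 and 48.3 CPM, -1.45 ± 0.31), IL1A (-2.87 ± 0.36), EBI3 (-2.91 ± 0.40), LIF (-1.89 ± 0.33), LTB (-1.27 ± 0.37), CCL4 (-1.18 ± 0.33), CCL7 (-3.54 ± 1.03) and CSF2, the gene of GM-CSF, which had no count with p42 and was at least 23.0-fold higher with p30. CCL4, CCL7 and LTB were not called on the TMM scale (adjusted p = 0.149, 0.0559 and 0.0768). Of the 5 higher calls, CCL24 lost the call in 8 of 14 alternatives and CXCL1 in 1.

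For several of these the p30 libraries were the ones that stood apart. CCL2 was at 23.1 ± 9.58 CPM and TNF at 10.2 ± 3.76 CPM with EV, below the p42 level in CCL2 and near it in TNF. CCL1, a chemokine for T cells, read 2.29, 0.922 and 1.33 CPM with p42, 8.43, 15.5 and 15.1 CPM with p30 and 1.59, 1.61 and 1.63 CPM with EV (-3.10 ± 0.36, adjusted p = 1.76e-15). CXCR5 (-3.02 ± 0.37), INHBA, a subunit of activin (-2.70 ± 0.34), GNLY, the lytic protein granulysin (-3.08 ± 0.44) and the secreted glycoprotein LGALS3BP (-3.28 ± 0.36) completed, with CD177, CCR7, EBI3, IL1A and EGR3, the 10 largest falls among genes that averaged 50 or more counts and did not overlap. For CCL1, CXCR5 and INHBA the mean EV level (1.61, 1.26 and 6.35 CPM) lay close to the mean p42 level (1.51, 1.45 and 6.81 CPM). The fits of p42 against EV and of p30 against EV share these libraries with the main comparison and each other, and called 2398 genes (11.3%) and 814 genes (3.83%). They gave CCL1 log2 fold changes of -0.09 ± 0.37 and 3.02 ± 0.37, CXCR5 0.22 ± 0.38 and 3.24 ± 0.38, and MPO 0.69 ± 0.28 and 2.77 ± 0.30, in that order.

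**Figure D3:**
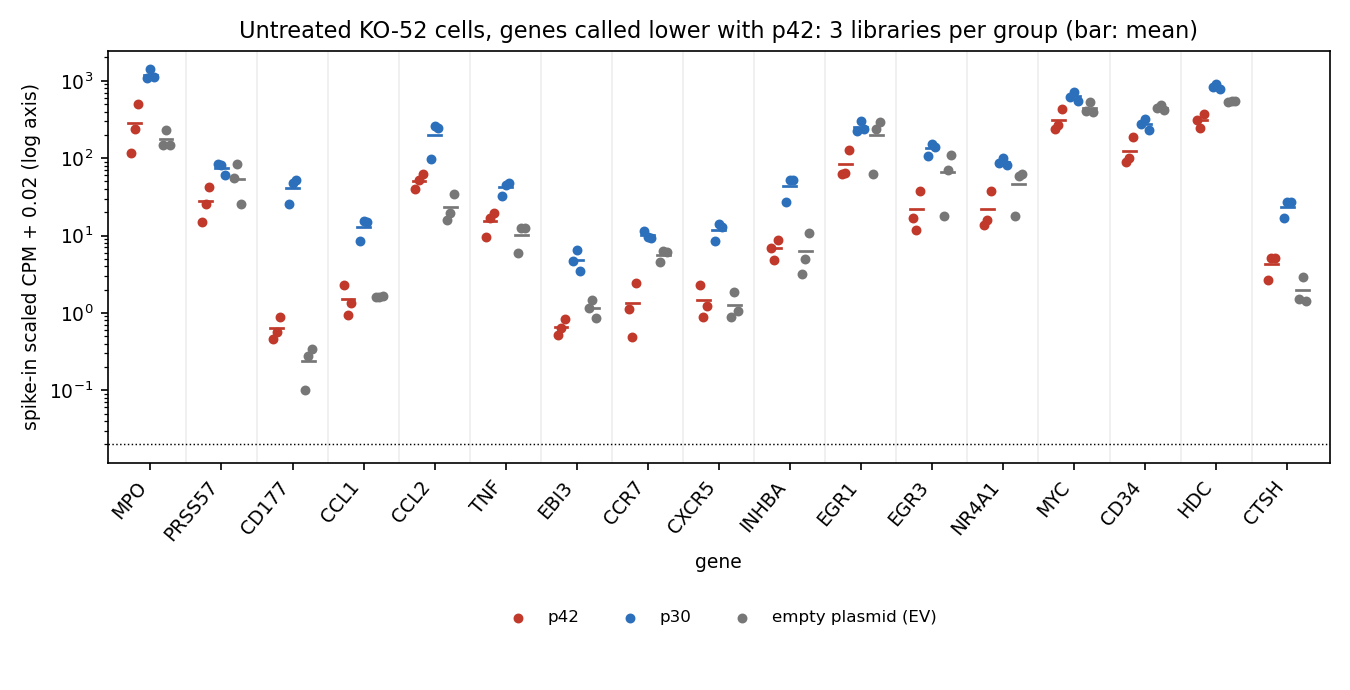
Each point is 1 untreated library with p42 (red), p30 (blue) and EV (grey), bars are group means, and the axis is spike-in scaled CPM plus 0.02 on a log scale. All 17 genes were called lower with p42 and in each the 3 p42 libraries lie below the 3 p30 libraries (as in 14.1% of all genes tested), and for CD177, CCL1, CXCR5 and INHBA the EV libraries lie near the p42 libraries.

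The 10 largest rises under the same limits had no count in any p30 library, and none of them was in a list. LOC102724858, an uncharacterised gene, read 34.7, 37.3 and 57.9 CPM with p42 and was at least 1027-fold higher. RPH3A, a synaptic vesicle protein, read 28.3, 41.1 and 44.2 CPM (at least 899-fold), LRP2, the endocytic receptor megalin, 17.4, 19.7 and 36.5 CPM (at least 583-fold), and SCN1A, a neuronal sodium channel, 13.8, 17.1 and 28.1 CPM (at least 467-fold). The other six were the pseudogenes KHDC1P1 and UGT2B26P, RALYL, SERPINB12, GABRA2 and SYT17, with bounds from 281-fold to 414-fold. Reads of pseudogenes may belong to their parent genes.

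Some of the smallest p values belonged to genes outside the lists, named here after their values were seen. HCAR2, the receptor for niacin and ketone bodies, read 51.7, 102 and 110.3 CPM with p42 and 0.0721, 0.107 and 0 CPM with p30, and its neighbour HCAR3 48.4, 85.6 and 92.6 and 0.216, 0 and 0.242 CPM. The pair is nearly identical in sequence, so reads that fit both may be missing or misplaced. AQP9, a channel for glycerol and water (7.81 ± 0.48), ANKRD22 (8.06 ± 0.45), KRT23 (8.39 ± 0.49), AKAP12, a scaffold for kinases (7.37 ± 0.44), VNN1, which releases pantothenate (7.02 ± 0.49), and MNDA, a nuclear protein of myeloid cells (6.09 ± 0.41), each stood below 1 CPM in every p30 library.

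Progenitor markers gave calls in both directions. Of 16 stem and progenitor surface genes 2 were higher and 2 lower, with a median of -0.56. CD34 read 88.9, 100.2 and 187 CPM with p42, 278, 318 and 234 CPM with p30 and 445 ± 35.3 CPM with EV (-1.14 ± 0.29, adjusted p = 0.00195), and CD7 had a log2 fold change of -1.18 ± 0.31. Both fell inside the fold threshold on the TMM scale (-0.95 and -0.95). CLEC12A, a lectin of granulocytes and leukaemic blasts, was higher (1.84 ± 0.32), and FLT3 read 0.195, 0.847 and 0.984 CPM with p42 and had 1 count over the p30 libraries, a ratio of 45.9 with a 95% counting interval of 7.95 to 1840.2. Of 21 stem cell transcription factors, GATA1 was lower (-3.11 ± 0.52). The 3 genes earlier tied to p30, MSI2 (-0.70 ± 0.31), NT5E (0.14 ± 0.36) and GATA2 (-0.66 ± 0.29), were not called.

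The list of mast cell, basophil and eosinophil genes had 5 of 16 tested members called lower and 1 higher. It does not hold the ribonuclease genes RNASE2 and RNASE3, which were called higher among the primary granule genes above. HDC, which makes histamine, read 308, 248 and 375 CPM with p42 and 836, 900.2 and 788 CPM with p30 (-1.44 ± 0.28, adjusted p = 1.22e-05). MS4A2 (-2.31 ± 0.41), PRG2 (-1.59 ± 0.33), FCER1A (-1.21 ± 0.31) and SIGLEC8 (-1.05 ± 0.36) were lower, and FCER1G, the Fc receptor gamma chain that macrophages also use (1.26 ± 0.32), was higher. Of these FCER1A and SIGLEC8 fell inside the fold threshold on the TMM scale.

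Several other lists gave few calls. None of 32 DNA replication and mitosis genes, 22 chaperone and unfolded protein response genes, 20 ribosomal protein genes, 20 cholesterol genes, 14 BCL2 family genes or 13 mitochondrially encoded genes was called, with medians between -0.53 for ribosomal proteins and 0.01 for the BCL2 family. With the C/EBP, interferon regulatory factor, erythroid, B cell and earlier p30 target lists these were 11 lists with 152 tested genes and no call. Of the 152 genes, 27 had an unadjusted p under 0.05 in edgeR, none was called by DESeq2 and 5 were called with TMM scaling. Of those 5, 3 were in the BCL2 family (14 tested), all higher with p42. With TMM 1798 of all 21272 genes were higher. MYC, at 313 ± 108 CPM with p42 and 628 ± 91.3 CPM with p30, was the 1 call among 11 genes of its network (-1.0 ± 0.28), and on the TMM scale its value was -0.79. CCND1 (-2.32 ± 0.50), CDKN2A (-1.04 ± 0.32) and BTG2 (-1.07 ± 0.30) were lower and CDKN2C (2.41 ± 0.75) higher among 13 cell cycle regulators. With TMM the balance turned, with 3 higher and 1 lower, and CDKN2A (-0.81) and BTG2 (-0.83) were inside the fold threshold. FAS (1.45 ± 0.34) and TP53INP1 (1.14 ± 0.33) were the calls among 16 genes of the p53 response (4 with TMM). TRIB3 (1.13 ± 0.31) was the call among 19 ATF4 targets, and CD86 (1.98 ± 0.35) the call among 14 genes of MHC class II and costimulation. Over all genes 6.15% were called higher.

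Of 24 lysosomal genes 3 were called higher, among them CTSL (3.51 ± 0.55) and TFEB (2.33 ± 0.39), the regulator of lysosome genes, and CTSH (-2.46 ± 0.34) was lower. PLIN2, which coats fat droplets, was the 1 call among 3 tested genes of the fat and liver list (2.10 ± 0.31). Of 36 interferon-stimulated genes GBP1 was higher (1.54 ± 0.32) and IFI27 (-2.14 ± 0.36) and IFI44L (-1.18 ± 0.30) lower. Over all genes 6.15% were higher and 2.15% lower. AIM2, a sensor of cytosolic DNA, was higher (3.32 ± 0.51). IFI44L read 22.5, 83.4 and 153 CPM in the p42 libraries and 104, 234 and 249 CPM in the p30 libraries, so the groups overlapped and the TMM test gave an adjusted p of 0.146.

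Markers of other cell types were at low levels, and their part in the results was not tested. Summed over the list, T and NK cell genes read 85.6 to 131 CPM with p42 and 166 to 188 CPM with p30, and B cell genes 10.5 to 20.4 and 18.5 to 21.3 CPM. Fibroblast, epithelial and endothelial genes read 31.1 to 45.7 and 54.3 to 64.4 CPM. Dendritic cell genes read 26.9 to 36.3 and 61.7 to 68.9 CPM. CD3D (-1.01 ± 0.31), GNLY, KRT8 (-1.0 ± 0.32), FCER1A and CCR7 were the lower calls in these lists, and none was higher, although TMM scaling gave 1 higher call among the T and NK cell genes. CD3D, KRT8 and FCER1A were inside the fold threshold with TMM (-0.74, -0.76 and -0.95), and CD3D and KRT8 lost the call in 8 and 11 of 14 alternatives. The T cell receptor genes TRAC, TRBC1 and TRBC2, the B cell genes MS4A1, IGHM and IGKC, the dendritic cell genes CLEC10A and CLEC4C and the epithelial cadherin CDH1 had no count in the 6 libraries. Of 10 genes listed as markers of the line itself 1 was called higher (FLT3) and 2 lower (CD34 and MPO). The other 7 were not called, and the median was -0.67. The sum of the 10 was 1764 to 3409 CPM with p42 and 4523 to 5267 CPM with p30, without overlap. It includes MPO and CEBPA, 2 genes at high levels whose p42 libraries all lay below the p30 libraries. The CEBPA count may also hold plasmid reads. Among the 10, PTPRC, the leukocyte antigen CD45, read 175 ± 45.8 CPM with p42 and 215 ± 52.7 CPM with p30, and CD33 79.7 ± 23.7 and 111 ± 15.0 CPM.

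The called genes were also examined for letters in their promoters. C/EBP proteins bind sites with letters such as TTGCNNAA. The 300 bases from 250 before to 50 after the annotated start (GENCODE release 44, hg38) of 13541 tested protein-coding genes were therefore searched on both strands. The letters stood in 11.3% of the windows of 883 genes called higher, 9.59% of 292 called lower and 6.92% of all. The AP-1 letters TGANTCA stood in 8.15%, 7.88% and 4.31%, and the composite TGATGNAA, read by C/EBP and ATF dimers, in 4.42%, 2.4% and 1.81%. Windows of called genes held a lower share of G and C, with medians of 64.0% and 61.3% against 65.7%, and the shares were not matched for it, so they are descriptions only. Of the 1308 higher genes 79.9% matched an annotated symbol, too few for a check over the whole set. Of 22 genes of the late granule and monocyte lists that were called higher, 9 held a TTGCNNAA match in the 250 bases upstream of the annotated start and 13 held none, S100A9, S100A8, ARG1, HP, MRC1 and QPCT among the latter. Those bases are shown for 3 of the 9, chosen because they hold a match, MMP8 (chr11:102724955-102725204, minus strand), CD163 (chr12:7503778-7504027, minus) and TREM1 (chr6:41286683-41286932, minus), in the direction of the gene, with the TTGCNNAA match on either strand in capitals.
MMP8 upstream: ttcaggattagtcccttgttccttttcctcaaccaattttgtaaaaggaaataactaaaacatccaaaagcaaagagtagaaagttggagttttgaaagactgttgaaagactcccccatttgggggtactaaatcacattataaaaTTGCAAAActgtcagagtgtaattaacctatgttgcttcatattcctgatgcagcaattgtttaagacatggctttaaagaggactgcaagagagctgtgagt
CD163 upstream: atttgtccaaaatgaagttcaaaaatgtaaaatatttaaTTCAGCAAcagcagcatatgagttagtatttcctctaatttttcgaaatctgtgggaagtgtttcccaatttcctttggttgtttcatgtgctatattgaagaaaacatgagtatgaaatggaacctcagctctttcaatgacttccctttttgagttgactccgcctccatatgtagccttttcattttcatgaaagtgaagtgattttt
TREM1 upstream: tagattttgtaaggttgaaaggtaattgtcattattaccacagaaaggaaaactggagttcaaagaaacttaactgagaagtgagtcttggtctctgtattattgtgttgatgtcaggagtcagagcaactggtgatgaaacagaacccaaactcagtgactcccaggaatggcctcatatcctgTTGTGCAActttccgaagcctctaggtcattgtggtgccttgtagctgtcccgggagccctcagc
The first base of the match lay 103 bases before the start in MMP8, 211 in CD163 and 65 in TREM1. Binding was not measured in these libraries.

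The libraries taken after 2 h of LPS share none with the untreated comparison. There 1646 genes were higher with p42 (7.74%) and 285 lower (1.34%), 1931 in all (9.08%). Of the 1308 untreated higher calls, 1188 (90.8%) were called higher again, which was 72.2% of the LPS calls, and none was called lower. Of the 457 untreated lower calls, 159 (34.8%) were called lower again, 55.8% of the LPS calls, and 7 were called higher. Late granule genes had large differences after LPS too, with S100A9 at 7.73 ± 0.41, MMP8 at 6.60 ± 0.39, ARG1 at 9.40 ± 0.49 and HP at 10.30 ± 0.58 on the log2 scale, and the falls of MPO (-1.92 ± 0.29) and CD177 (-5.87 ± 0.41) were seen again.

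The test of whether the p42 minus p30 difference itself changed between untreated and LPS gave 47 genes (0.221%), 46 with a larger value after LPS (0.216%) and 1, BATF2, with a smaller one (0.0047%). Of the 47, 14 were called lower with p42 when untreated, 4 higher and 29 not called. TNF, lower with p42 when untreated (-1.45 ± 0.31), was higher after LPS (1.95 ± 0.32), with 139, 258 and 319 CPM in the p42 libraries and 56.1, 63.8 and 66.0 CPM in the p30 libraries, and the change of 3.40 ± 0.44 had an adjusted p of 6.11e-11. CCL4 went from -1.18 ± 0.33 to 4.19 ± 0.36 (change 5.36 ± 0.48, adjusted p = 9.88e-25), IL1A from -2.87 ± 0.36 to 2.02 ± 0.33 (4.89 ± 0.49, adjusted p = 1.18e-19) and EBI3 from -2.91 ± 0.40 to 1.55 ± 0.36 (4.45 ± 0.54, adjusted p = 4.78e-13).

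The neutrophil attractant CXCL8 read alike when untreated, 476 CPM on average with p42 and 472 CPM with p30 (0.01 ± 0.28), and after LPS 834, 1464 and 1755 CPM with p42 and 125, 256 and 107 CPM with p30 (3.05 ± 0.31). CCL3 (-0.02 ± 0.31 untreated, 4.12 ± 0.35 after LPS) and CXCL2 (0.13 ± 0.31 and 4.02 ± 0.35) had values near 0 when untreated and well above it after LPS. CCL2 and CCL1 went from -1.96 ± 0.31 and -3.10 ± 0.36 to 0.30 ± 0.30 and 0.22 ± 0.33, and neither was called after LPS.

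**Figure D4:**
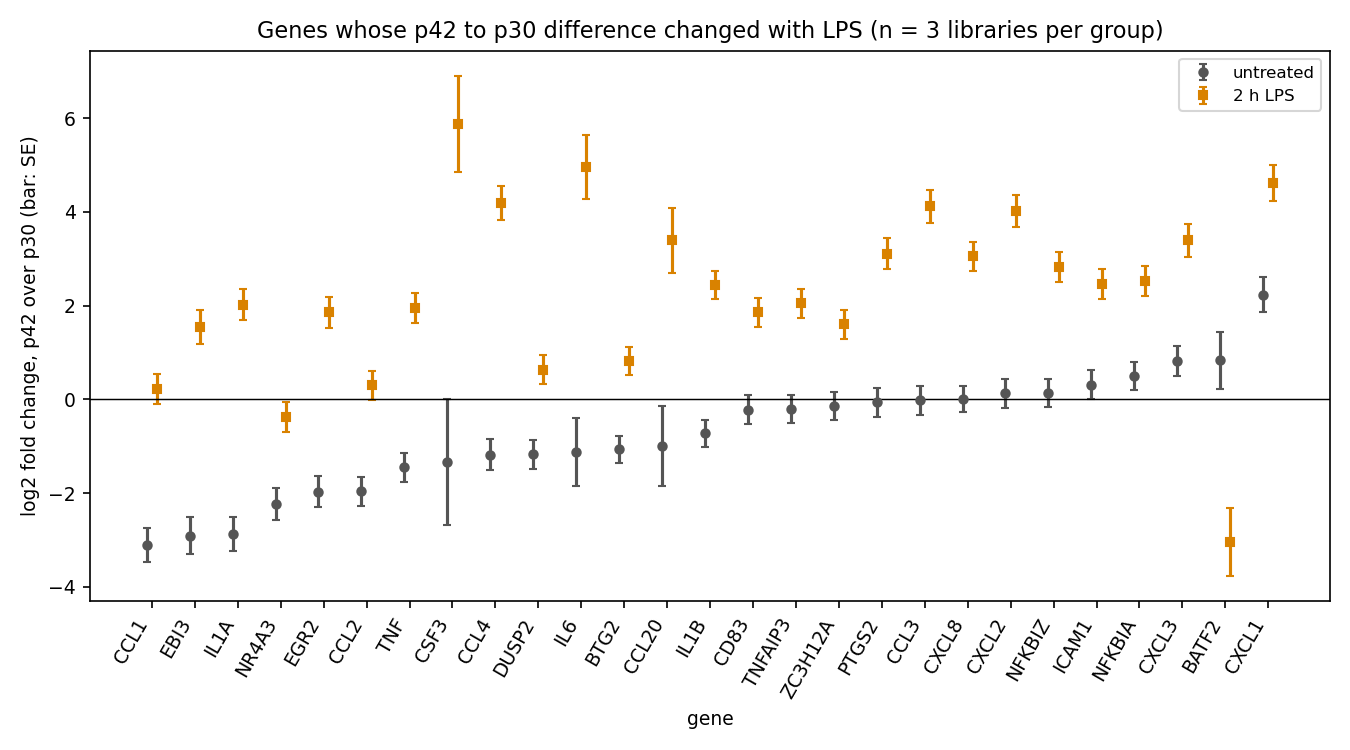
For the 27 named genes whose p42 to p30 difference changed between untreated and 2 h LPS, circles give the untreated and squares the LPS log2 fold change, p42 over p30, with SE bars from 3 libraries a group. The squares lie above the circles in every gene but BATF2, and the circles run from -3.10 in CCL1 to 2.23 in CXCL1.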

How the data were processed

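RNA-seq of polyA RNA from KO-52 cells was analysed from the table of raw counts per gene that the authors deposited. They aligned reads to hg38 with Bowtie2 2.4.4, which does not split reads over introns, and counted uniquely mapping reads with featureCounts of Subread 2.0.3. The strand setting is not given in the sources used here, so overlapping and antisense genes may share reads. Multi-copy genes are uncertain. Samples were grouped by their titles, and 6 LPS columns were assigned to groups only, without replicate numbers. All 18 KO-52 libraries (6 groups of 3) entered 1 fit in R 4.3.3 with edgeR 4.0.16: filterByExpr, library sizes scaled on the 92 ERCC rows with the size factors of DESeq2 1.42.0, and the quasi-likelihood test with Benjamini-Hochberg adjustment. The change of the difference with LPS was tested as an interaction with no fold threshold. TMM, RLE, no filter, DESeq2, fewer libraries, a replicate block and leaving out each library were alternatives. The pipeline was tested on simulated data. Depth was 22101134 to 32414233 counts per library in the 6 libraries compared, and counting intervals and the floor of 3 counts cover counting error only.

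Genes were named by rule: CEBPA, the 10 genes in each direction with the largest fold change (significant after adjustment, averaging 50 or more counts over the 6 libraries, groups not overlapping), the AP-1 and C/EBP families, and members of 44 lists. The members and lists were chosen with earlier results of these data known. Of the genes tested 83.1% matched a GENCODE release 44 symbol. The mouse tables of the series were not used here, and a few results are not reported here.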

Additional observations from a re-analysis of the deposited data

Results flagged for a closer look

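These results are listed because the p42 minus p30 difference, on the log2 scale, changed between untreated and LPS-treated cells by the interaction test (edgeR, adjusted p under 0.05). It did so in 47 genes. Over all genes the median change was 0.12, so the values are best read against it. Among named genes the cytokines and chemokines changed by 7.22 (CSF3), 6.08 (IL6), 5.36 (CCL4), 4.89 (IL1A), 4.45 (EBI3), 4.38 (CCL20), 4.13 (CCL3), 3.89 (CXCL2), 3.40 (TNF), 3.32 (CCL1), 3.17 (IL1B), 3.04 (CXCL8), 2.58 (CXCL3), 2.38 (CXCL1) and 2.26 (CCL2). Regulators and surface proteins changed by 3.83 (EGR2), 3.18 (PTGS2), 2.69 (NFKBIZ), 2.25 (TNFAIP3), 2.15 (ICAM1), 2.08 (CD83), 2.04 (NFKBIA), 1.88 (BTG2), 1.86 (NR4A3), 1.80 (DUSP2) and 1.75 (ZC3H12A). BATF2 changed by -3.88, from 0.167, 2.84 and 0.599 CPM with p42 and 0.288, 1.34 and 0.485 CPM with p30 when untreated to 0.264, 0.0887 and 0.0554 and 1.03, 0.791 and 1.97 CPM after LPS. CSF3 and IL6 were below 1 CPM in every untreated p42 and p30 library. With TMM scaling 64 genes passed, all with a larger difference after LPS.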

How the results depend on the processing

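With all 6 libraries, the 1308 genes higher with p42 stayed within 1.5 times that number under each alternative tried. The 457 lower genes fell to 297 with TMM scaling, 302 with RLE scaling and 217 with the replicate block under TMM scaling. Leaving out 1 library gave 1402 to 2836 calls in all, 1015 to 1456 higher and 196 to 1667 lower, with 1667 lower without p42 replicate 3, 196 and 231 without p42 replicate 2 or 1 and 230 without p30 replicate 2. The replicate block alone gave 1646 calls. Same-numbered p42 and p30 libraries deviated from their group means with correlations of -0.33 to -0.11, and other pairs with -0.27 to 0.35. Deviations from means of 3 libraries cannot show whether the numbers mark shared experiments. Calls of p30 against EV were 814 and were 357, 1486 and 388 without EV replicate 1, 2 or 3 and 441 and 472 without p30 replicate 2 or 3. Those of p42 against EV (2398), of p42 against p30 after LPS (1931) and of the interaction (47) stayed within 1.5 times. The difference in spike-in share, 0.0854 percentage points, ran from 0.0156 to 0.164 when 1 library was left out, an alternative chosen after seeing the data. Of 149 named genes with a call, 110 kept it under every alternative run, 39 lost it in at least 1 and none reversed. List counts stayed within 1.5 times, and list medians within 1 SD of the libraries, in 1647 of 1848 recomputations. Depth limits genes at a few counts, whose folds are given as bounds or with counting intervals.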

Other observations

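Genes called higher with p42 tended to lie beside each other. Among tested protein-coding genes with another such gene starting within 100 kb, 19.8% of 485 genes called higher had a nearest neighbour that was also called higher, against 4.26% of all 10616. For genes called lower the shares were 10.9% of 230 and 1.95%. The pairs included receptor genes of one family, such as FPR1 and FPR2, CLEC4D and CLEC4E, and HCAR2 and HCAR3, the scavenger receptors CD163 and CD163L1, the aldo-keto reductases AKR1C1 and AKR1C2, and the serine proteases CFD and PRTN3. Reads that fit both of 2 similar neighbours may be missing or misplaced, so the values of such pairs are uncertain.

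Protein-coding genes called higher covered longer stretches of genome, with a median of 65.5 kb from start to end, against 20.4 kb for genes called lower and 32.5 kb for all tested. Of the 1308 higher genes 79.9% matched an annotated symbol, so a check of length over all of them is void and these medians describe the matched protein-coding genes only.

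The p42 libraries were spread widely in interferon-stimulated genes. IFI27 read 0.279, 2.07 and 4.02 CPM with p42 and 6.59, 11.1 and 9.97 CPM with p30. The p42 library of replicate 1 was the lowest of the 6. Summed over the 37 listed genes in the table, levels were 1868 to 5669 CPM with p42, 3843 to 5896 CPM with p30 and 3589 to 4449 CPM with EV, so the groups overlapped.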
